A study of Homo sapiens with 6 samples.

Results

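The HOX genes of the HOXA, HOXB, HOXC and HOXD clusters were examined in HGC-27 cells, an established human gastric cancer line, with and without knockdown of ACAT2, which encodes a cytosolic acetyl-CoA acetyltransferase. The members were all protein-coding genes of the expression table named by a cluster letter and a position number, which gave 39 of the 58735 genes listed and of the 19951 protein-coding ones. HOXA held 11 of them, HOXB 10, HOXC 9 and HOXD 9. RNA-sequencing covered 3 shNC libraries, from cells given the control vector pSIH-H1-Puro-shNC and labelled WT, and 3 shACAT2 libraries, from cells given pSIH-H1-Puro-shACAT2 and labelled as ACAT2 knockdown. Both groups were exposed to vector for 24 h and selected with puromycin for 7 days, so the control cells carried a vector and the drug selection too. The methods describe a pair of ACAT2 hairpins and an empty vector as control, and the labels do not say which hairpin each shACAT2 library received, so hairpins cannot be compared in this 1 cell line.

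HOX genes encode homeodomain transcription factors that set position along the body axis. Their order on the chromosome follows the order of their expression along the embryo, with low-numbered genes active towards the head and high-numbered genes towards the tail, and genes of the same number in different clusters, called paralogues, are close relatives. In the developing gut they are used mainly in the mesenchyme, with posterior members in the hindgut. Polycomb complexes keep silent HOX genes closed and Trithorax and MLL complexes keep active ones open, retinoic acid switches on the low-numbered end, and TALE homeodomain proteins such as PBX and MEIS bind DNA beside HOX proteins.

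ACAT2 was read at 14.2, 11.7 and 12.7 FPKM (fragments per kilobase of exon, scaled to sequencing depth) in shNC and at 6.19, 5.46 and 6.05 FPKM in shACAT2, a log2 fold change of -1.01 ± 0.10 (SE, n = 3 and 3) on the log2(FPKM + 1) scale with a limma adjusted p of 0.0059, or 0.0512 without shNC replicate 3. A library held 14086416 to 16067486 fragments on genes. The library labelled shACAT2 replicate 3 held 7477 genes with fragments in no other library, against 416 to 657 in each of the others, and shNC replicates 2 and 3 lay closer to each other than other pairs of a group (chi-square per gene of 1.73 against 12.1 to 46.0). None of 8 stomach markers and none of 6 epithelial markers reached a group mean of 1 FPKM, and the secreted stomach products GKN1, TFF1 and PGC had no fragment in any library, so the defining markers of the labelled tissue were low or not detected. The stomach list summed to 0.43 to 0.50 FPKM in shNC and 0.26 to 0.69 FPKM in shACAT2, and the epithelial list to 0.51 to 0.83 FPKM and 1.47 to 2.28 FPKM, with the groups apart. The mesenchymal list (VIM, CDH2, FN1, SPARC, COL1A1, COL3A1 and ZEB1) had 6 of 7 genes above the limit and summed to 541 to 631 FPKM in shNC and to 811 to 1009 FPKM in shACAT2. Its N-cadherin gene CDH2 stayed under 1 FPKM.

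Of the 39 HOX genes, 27 reached a mean of 1 FPKM in either group and entered the test, and they made up more of the genes at high than at low positions. HOXA was read at positions 3, 4, 5, 6, 9, 10, 11 and 13, HOXB at 5, 6, 7, 9 and 13, HOXC at 4, 5, 6, 8, 9, 10, 11 and 13, and HOXD at 8 to 13 without a gap. Counted over all clusters, 1 of 8 genes at positions 1 to 3 passed, 11 of 15 at positions 4 to 8 and 15 of 16 at positions 9 to 13. The exception at the low-numbered end was HOXA3, which patterns the pharyngeal pouches that give thymus and parathyroid, and the exception at the other end was HOXC12. A limit of 0.5 FPKM passed 31 genes and a limit of 5 FPKM passed 12, of which 10 lay at positions 9 to 13, 2 at positions 4 to 8 and 0 at positions 1 to 3.

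**Figure D1:**
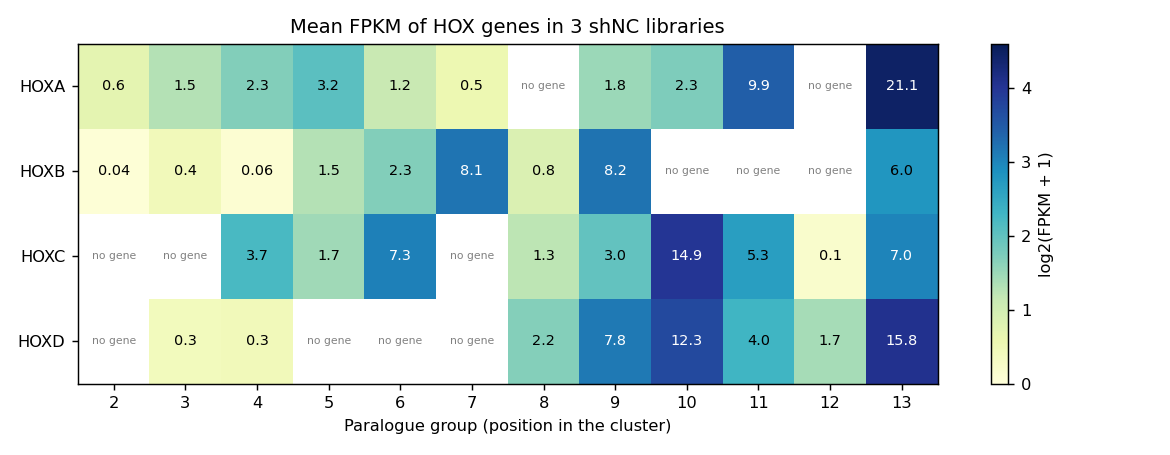
Mean level of the HOX genes of positions 2 to 13 in the 3 shNC libraries, with the clusters as rows and the paralogue groups 2 to 13 as columns. Each cell prints the mean FPKM and is coloured by log2(FPKM + 1), and the darkest cells, HOXA13 at 21.1 and HOXD13 at 15.8 FPKM, lie in the last column.

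Among the 12 genes below the limit were HOXA2, HOXA7, HOXB1, HOXB2, HOXB3, HOXB4, HOXB8, HOXC12, HOXD1, HOXD3 and HOXD4. The highest value in any library was 1.08 FPKM, for HOXB8 in shNC replicate 1. HOXB1 and HOXD1 had no fragment in 5 libraries and 2 fragments each in shACAT2 replicate 3. Genes silent in the other libraries carried 0.743 fragments per kilobase in that library, which for the lengths of HOXB1 and HOXD1 comes to 1.84 and 1.47 fragments, close to what was read. HOXA2 (0.566 to 0.718 FPKM in shNC and 0.808 to 0.976 FPKM in shACAT2) and HOXB3 (0.342 to 0.368 and 0.424 to 0.447 FPKM), both hindbrain and neck patterning genes, were higher in every shACAT2 library. Of the genes named here they alone had groups apart, against 30.7% of all tested genes. HOXA2 rested on 24 to 36 fragments per library and HOXB3 on 42 to 55. In shACAT2 replicate 3 the background comes to 5.54 of the 50 HOXB3 fragments. Without a filter on low values neither HOXA2 nor HOXB3 passed, with limma adjusted p of 0.640 and 0.721.

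Genes lying across other genes were not counted on the bases they share. Of genes of at least 300 bases, 431 of 431 lying wholly under exons of the opposite strand and 381 of 401 under exons of the same strand were at 0 in all libraries, against 25.5% of 32468 genes that share no base, and in the HOX clusters 4 of 4 wholly covered genes of that length were at 0. The FPKM of a member with shared bases is therefore a lower estimate of its level. Bases shared across strands were left out as well, so strand did not decide the gene of a fragment, antisense RNAs included. The shared part of the exon bases was 80.5% in HOXD4, 74.1% in HOXD3, 62.5% in HOXA7, 59.9% in HOXC5 and 58.1% in HOXD1. Per unshared length the shNC means of HOXD4, HOXD3 and HOXA7 became 1.78, 1.27 and 1.28 FPKM, so that in shNC HOXD positions 3 and 4 and HOXA position 7 passed the limit too. These means rest on few fragments per shNC library, 6 to 10 for HOXD4, 16 to 23 for HOXD3 and 13 to 24 for HOXA7. The shACAT2 means were not rescaled. HOXB9 shared no base and HOXA13 shared 1.69%. Per unshared length HOXC10 (16.6 FPKM) came ahead of HOXD13 (15.8 FPKM), and the other places among the 5 highest genes stayed as given next for FPKM.

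HOXA13, which with HOXD13 patterns the hands, feet and urogenital tract, was the highest HOX gene, with 20.3, 22.7 and 20.5 FPKM in shNC (mean 21.1 ± 1.33, SD, n = 3). HOXD13 followed with 15.8 ± 0.230 FPKM, then HOXC10, a gene of the lumbar and hindlimb region, with 14.9 ± 0.871, HOXD10, which acts in the same region, with 12.3 ± 0.223, and HOXA11, a gene of the forearm and uterus, with 9.85 ± 0.986 FPKM. The shNC ranges of HOXA13, HOXD13, HOXC10 and HOXD10 were each apart from the next gene in the order. HOXA11 overlapped HOXB9 and HOXB7 and lay above HOXD9, HOXC6 and HOXC13 in every shNC library, while HOXB9, HOXB7, HOXD9, HOXC6 and HOXC13 (means of 8.18 to 7.05 FPKM) overlapped each other. HOXB13 (5.95 ± 0.198 FPKM), known from prostate and hindgut, came next and overlapped HOXC11 (5.33 ± 0.580 FPKM).

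HOXA13 stands at the end of its cluster, on the minus strand of chromosome 7 (chr7:27193503-27200106, GRCh38), and HOTTIP, a long noncoding RNA known to hold MLL complexes at the 5′ HOXA genes, starts in RefSeq beside it on the plus strand. The HOTTIP gene as counted begins at chr7:27198575, inside HOXA13, so the window printed below is not at its annotated start. The windows of 250 bases before and 50 bases after both starts, from RefSeq on GRCh38.p14, are printed because they overlap by 171 bases (chr7:27200171-27200341) while their genes differed in the comparison given further on. HOXA13 lies at chr7:27200042-27200341 and HOTTIP at chr7:27200171-27200470. Capitals mark the GC box GGGCGG and the CCAAT box on either strand, with 1 stretch in each window where the 2 motifs run together.
HOXA13: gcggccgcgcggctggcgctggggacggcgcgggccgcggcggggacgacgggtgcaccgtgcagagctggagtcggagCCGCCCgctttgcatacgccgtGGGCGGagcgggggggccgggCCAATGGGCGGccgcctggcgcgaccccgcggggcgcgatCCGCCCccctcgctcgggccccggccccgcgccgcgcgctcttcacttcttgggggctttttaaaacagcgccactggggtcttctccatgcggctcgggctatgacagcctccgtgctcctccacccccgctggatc
HOTTIP: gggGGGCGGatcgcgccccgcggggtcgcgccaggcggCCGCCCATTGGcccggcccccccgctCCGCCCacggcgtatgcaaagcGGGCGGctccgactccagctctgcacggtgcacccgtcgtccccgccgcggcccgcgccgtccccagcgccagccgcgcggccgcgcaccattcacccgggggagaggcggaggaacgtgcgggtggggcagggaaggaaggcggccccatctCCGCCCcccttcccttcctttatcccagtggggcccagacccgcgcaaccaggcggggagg
The HOXA13 window held 4 GC boxes and 1 CCAAT box, and the HOTTIP window 5 and 1. All those of the HOXA13 window lie in the 171 bases that the windows share. They are the same sites as 4 of the GC boxes and the CCAAT box of the HOTTIP window, printed from the other strand. Of 35116 such windows of all genes, 45.0% held GGGCGG and 34.6% held CCAAT. The letters TATAAA (11.5% of all windows), GGAATG, the motif of TEAD factors (14%), and TGATTNAT, a joint HOX and PBX motif (2.82%), were in neither window. RefSeq windows were at hand for 20 of the 39 members, 27 windows in all, with windows of the same gene counted separately. Of these 27, CCAAT was in 18, GGGCGG in 13, GGAATG in 8 and TATAAA in 5. The HOX and PBX motif was found in 2, those of HOXA2 and HOXD11.

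All HOX genes summed to 167.3, 158.8 and 157.2 FPKM in shNC and to 188.5, 161.7 and 156.5 FPKM in shACAT2. The groups overlapped and the highest sum belonged to shACAT2 replicate 1. That library also had the smallest FPKM denominator for its fragments on genes (0.957 times them, against 1.02 to 1.07 times in the others), which raises all its FPKM values. The part of this in the sum was not tested. Positions 9 to 13 held 74.8% to 75.8% of the sum in shNC and 72.6% to 74.8% in shACAT2, and the 4 genes of position 13 alone held 30.1% to 31.8% and 31.4% to 34.4%. By cluster, HOXC held 25.8% to 28.8% of the sum in shNC and 30.3% to 33.1% in shACAT2, while HOXD held 26.6% to 28.3% and 23.1% to 25.2%. The groups were apart for HOXC and HOXD and overlapped for HOXA and HOXB, and as shares of 1 sum the clusters cannot move independently of each other.

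**Figure D2:**
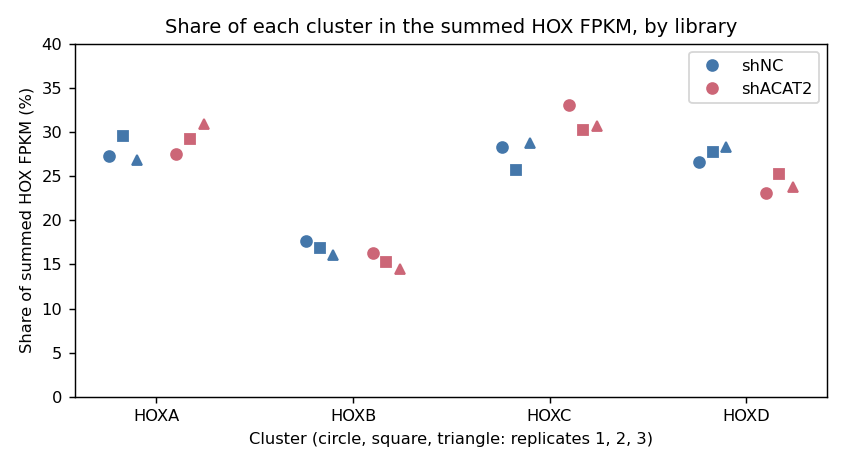
Share of each cluster in the summed HOX FPKM (y axis, %) in every library, with shNC in blue and shACAT2 in red and the replicate number as the marker shape. HOXC shares lie at 25.8% to 28.8% in shNC and 30.3% to 33.1% in shACAT2, and HOXD shares at 26.6% to 28.3% and 23.1% to 25.2%.

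Between the groups, 1 of the 27 tested HOX genes passed an adjusted p of 0.05 and 0 rose: HOXB9 fell. Over all 13832 genes tested with limma, 3.3% were called higher and 1.81% lower, 5.1% in either direction. These were 456 and 250 genes, which became 436 and 365 with the libraries scaled by their upper quartile and 485 and 399 with scaling by library size. At an unadjusted p under 0.05, 4 HOX genes were higher and 5 lower, 9 of 27, against 23.5% of all genes. The libraries of the groups did not overlap for 10 HOX genes, 4 higher and 6 lower, against 30.7% of all genes. The median log2 fold change was 0.005 over the 27 genes, 15 of them above 0, and 0.016 over all genes. With a log2 fold change beyond 1 and an unadjusted p under 0.05, the thresholds of the study set on these limma values, 0 HOX genes and 1.5% of all genes passed. These were 207 of all genes, or 480 with a pseudocount of 0.1 and 485 with limma-voom. The HOX genes were counted on the log2(FPKM + 1) scale alone, and the study's own fit was not repeated. HOXA6 and HOXD12 had passed the filter through their shNC mean alone.

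HOXB9 (ENSG00000170689, chr17:48621159-48626356, minus strand), a gene of the thoracic region that also acts in the mammary gland, was read at 8.96, 8.03 and 7.55 FPKM in shNC and at 5.72, 5.34 and 5.37 FPKM in shACAT2. All shACAT2 libraries lay below all shNC libraries. The mean went from 8.18 ± 0.718 to 5.48 ± 0.209 FPKM (SD, n = 3), a log2 fold change of -0.50 ± 0.09 (SE) with a limma adjusted p of 0.0325, on 208 to 354 fragments per library. In limma the call was lost without shACAT2 replicate 2 (adjusted p = 0.119) or 3 (0.0592) and without shNC replicate 1 (0.105), 2 (0.148) or 3 (0.118), and the log2 fold change then stayed between -0.55 and -0.44. It was also lost with no filter on low values (limma adjusted p = 0.0969) and with shNC replicates 2 and 3 averaged into 1 sample (0.130). Shares of cells and RNA per cell cannot be told apart in bulk RNA, here or in any value that follows.

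HOXA3 and HOXC13 were the members with the largest values in the other direction. HOXA3 was read at 1.73, 1.36 and 1.35 FPKM in shNC and at 2.75, 2.35 and 2.18 FPKM in shACAT2. HOXC13, known from hair and nail, was read at 7.93, 6.52 and 6.70 FPKM and at 13.7, 9.61 and 9.96 FPKM. In both genes the groups did not overlap, and replicate 1 was the highest library of its group. HOXA3 differed by 0.47 ± 0.12 on the log2 scale and HOXC13 by 0.57 ± 0.15, and the limma adjusted p of 0.0755 and 0.0773 missed the threshold. HOXA3 did pass with a filter of at least 10 fragments in every library (limma adjusted p = 0.0394) and with limma-voom on fragments (0.0393). With the replicate number as a block their limma adjusted p became 0.0390 and 0.0251, so that 2 HOX genes passed higher, against 7.67% of all genes, and HOXB9 (0.0246) alone passed lower, against 4.81% (12.5% of all genes in either direction).

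**Figure D3:**
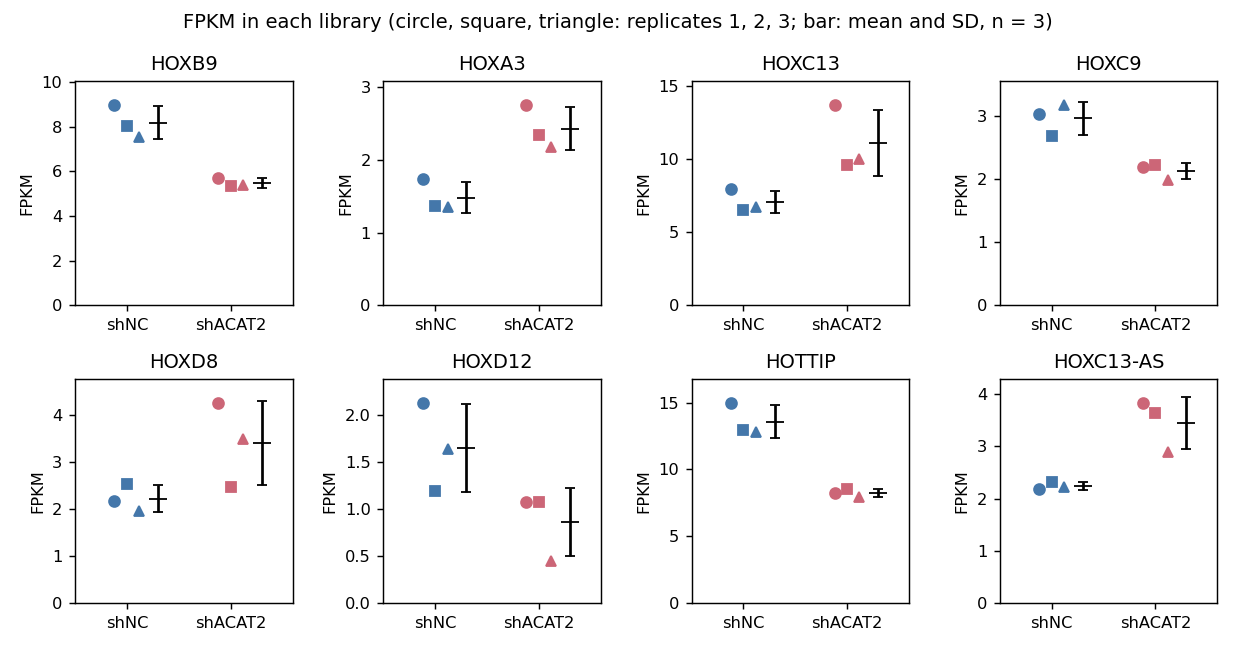
FPKM in each library (y axis) of 6 HOX genes and 2 RNAs of the clusters, in 3 shNC (blue) and 3 shACAT2 (red) libraries with the mean and SD as a bar. HOXB9 and HOTTIP lie lower in every shACAT2 library, HOXA3, HOXC13 and HOXC13-AS lie higher, and HOXD8 overlaps.

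The paralogues of group 9 had negative log2 fold changes in all 4 clusters, and those of group 13, given next, had positive ones. Group 9 was picked out after its signs were seen, so the shared sign is no test. Over all genes, 52.3% had a value above 0. HOXC9, a thoracic gene, was read at 3.04, 2.68 and 3.18 FPKM in shNC and at 2.20, 2.22 and 1.98 FPKM in shACAT2, with no overlap (-0.34 ± 0.10, limma adjusted p = 0.102). HOXA9, best known from blood progenitors, was read at 2.07, 1.71 and 1.70 FPKM and at 1.61, 1.57 and 1.41 FPKM, also with no overlap (-0.16 ± 0.11). HOXD9, a gene of the lumbar region and hindlimb, was read at 7.86, 7.75 and 7.75 FPKM and at 8.42, 7.40 and 5.38 FPKM, where the groups overlapped (-0.14 ± 0.15). Only HOXB9 passed, with limma adjusted p of 0.441 for HOXA9 and 0.613 for HOXD9. Without shACAT2 replicate 3 the HOXD9 value turned to 0.02.

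The paralogues of group 13 had positive log2 fold changes in every cluster, but of unlike size. HOXA13 went from the values above to 19.2, 21.0 and 23.6 FPKM in shACAT2 and HOXD13 from 16.0, 15.6 and 15.7 to 18.3, 14.4 and 15 FPKM, both with overlap and a log2 fold change of 0.00 ± 0.11. HOXB13 was read at 6.11, 5.73 and 6.02 FPKM and at 8.0, 6.18 and 5.29 FPKM, which overlapped (0.09 ± 0.14). The signs of HOXA13 and HOXD13 turned to -0.05 when libraries were scaled by upper quartile or by library size, and that of HOXB13 to -0.05 without shACAT2 replicate 1. HOXC13 alone of the group had groups that did not overlap.

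In HOXD, the genes of positions 10 to 12 lay lower in every shACAT2 library and that of position 8 had a higher mean. Positions 10 to 12 made 3 of 6 tested HOXD genes lower with no overlap, against 14.5% of all genes. These positions were grouped after their values were seen, and HOXD12 passed the filter only through the group where it was high. The share is therefore a description and no test. HOXD10 was read at 12.1, 12.5 and 12.3 FPKM in shNC and at 8.56, 11.6 and 9.53 FPKM in shACAT2 (-0.30 ± 0.12). HOXD11, a gene of the forearm, was read at 3.75, 3.77 and 4.40 FPKM and at 2.19, 3.56 and 3.00 FPKM (-0.36 ± 0.15). HOXD12, a gene of the digits, was read at 2.14, 1.19 and 1.64 FPKM and at 1.08, 1.07 and 0.446 FPKM (-0.51 ± 0.21). It entered the test through its shNC mean alone and rested on 9 to 44 fragments per library. HOXD8, a trunk gene, was read at 2.16, 2.53 and 1.96 FPKM and at 4.26, 2.47 and 3.5 FPKM, so the groups overlapped at replicate 2 (0.44 ± 0.17). The limma adjusted p of these genes lay between 0.174 for HOXD8 and 0.202 for HOXD11, so none passed.

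In HOXC, the remaining genes at positions 6, 10 and 11 had higher means in shACAT2. HOXC6, a thoracic gene, was read at 7.99, 6.93 and 7.11 FPKM in shNC and at 10.6, 8.31 and 8.64 FPKM in shACAT2, with no overlap (0.28 ± 0.12, limma adjusted p = 0.201). HOXC10 was read at 15.5, 13.9 and 15.4 FPKM and at 21.2, 15.4 and 16.8 FPKM (0.22 ± 0.13), and HOXC11 at 6.0, 5.03 and 4.97 FPKM and at 7.28, 6.65 and 5.45 FPKM (0.23 ± 0.12). Both overlapped, and shACAT2 replicate 1 was the highest library of all 3 genes. HOXC4 (3.52, 3.12 and 4.36 FPKM against 3.77, 3.40 and 2.54 FPKM), HOXC5 (1.92, 1.33 and 1.99 against 2.55, 1.80 and 1.26 FPKM) and HOXC8 (1.35, 1.31 and 1.38 against 1.05, 1.43 and 1.2 FPKM), neck and trunk genes, overlapped with log2 fold changes of -0.14, 0.05 and -0.08.

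In HOXA, HOXA11 was read at 10.7, 10.1 and 8.77 FPKM in shNC and at 16.2, 12.5 and 10.7 FPKM in shACAT2, where the lowest shACAT2 library lay just above the highest shNC library (0.37 ± 0.16, limma adjusted p = 0.214). HOXA10, which acts in the uterus and lumbar region, was read at 2.52, 2.10 and 2.36 FPKM and at 3.25, 2.29 and 2.55 FPKM (0.15 ± 0.13). The overlap was plain for HOXA4 (2.92, 2.08 and 1.76 against 3.13, 1.86 and 1.98 FPKM), for HOXA5, a lung and airway gene (2.60, 3.90 and 3.06 against 3.01, 2.71 and 2.69 FPKM), and for HOXA6 (0.864, 1.44 and 1.22 against 0.359, 0.983 and 1.24 FPKM). On the log2 scale these genes differed by 0.03, -0.13 and -0.25, and limma gave adjusted p of 0.950, 0.608 and 0.555. HOXA6 rested on 7 to 30 fragments per library.

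In HOXB, HOXB5, HOXB6 and HOXB7 overlapped between the groups. HOXB5, which acts in the enteric nervous system, was read at 1.63, 1.39 and 1.42 FPKM in shNC and at 2.16, 1.62 and 1.63 FPKM in shACAT2 (0.17 ± 0.12). HOXB6 was read at 2.28, 2.13 and 2.36 FPKM and at 2.23, 1.96 and 1.41 FPKM (-0.20 ± 0.13), and HOXB7 at 9.11, 8.56 and 6.57 FPKM and at 11.3, 8.39 and 7.98 FPKM (0.17 ± 0.17). Their limma adjusted p lay between 0.428 and 0.588. By number, the tested members next below and next above HOXB9, whose groups were apart, were HOXB7 and HOXB13, whose groups overlapped. HOXB8 was not tested, and HOXB7 as counted (chr17:48607227-48633572) spans HOXB9 on the chromosome.

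**Figure D4:**
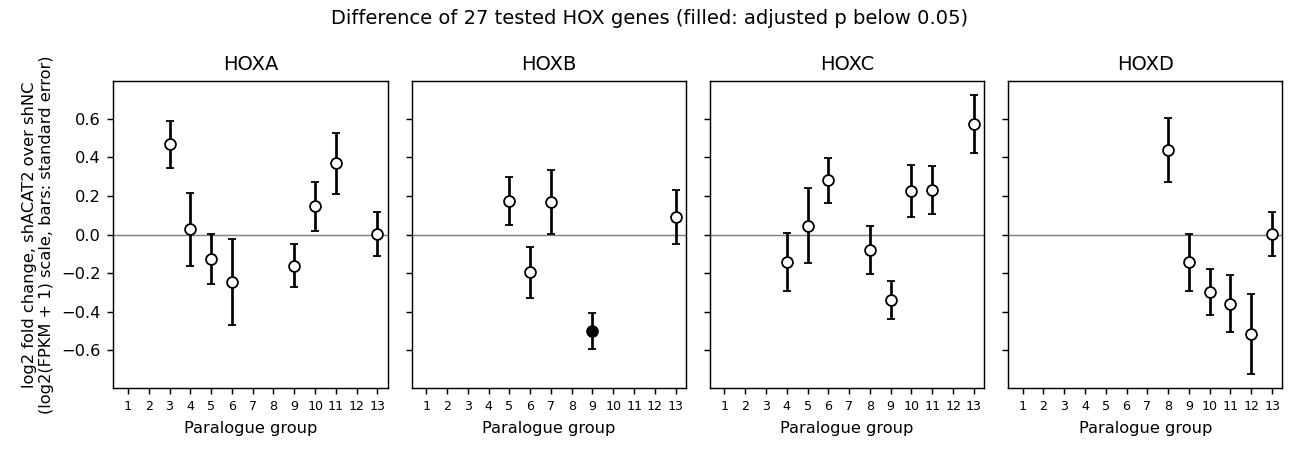
Log2 fold change of shACAT2 over shNC on the log2(FPKM + 1) scale (y axis) against paralogue group (x axis) for the 27 tested HOX genes, 1 panel per cluster, with standard errors as bars. The filled point is HOXB9 at -0.50, and the open points of HOXD run from 0.44 at position 8 to -0.51 at position 12 before 0.00 at position 13. The gene at position 12, HOXD12, was tested through its shNC mean alone.

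The clusters span 62 other genes of the annotation, most of them noncoding RNAs, of which 16 were tested and 27 were at 0 in all libraries. HOTTIP (ENSG00000243766) was the one that passed, and it fell. It was read at 15, 13 and 12.8 FPKM in shNC and at 8.26, 8.52 and 7.91 FPKM in shACAT2, with no overlap. Its log2 fold change was -0.66 ± 0.10 (limma adjusted p = 0.0169), on 604 to 1167 fragments per library. In limma this call was lost without shACAT2 replicate 2 (adjusted p = 0.0746) and without shNC replicate 1 (0.0647), 2 (0.0931) or 3 (0.0907), and with shNC replicates 2 and 3 averaged (0.0900). HOXA13, with which its printed window overlaps, had a log2 fold change of 0.00, and the 86 exon bases that they share were counted for neither.

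Of the 15 tested genes of the clusters other than HOTTIP, which include the protein-coding PRAC1 and PRAC2, 9 had a log2 fold change below 0 and 7 were lower with no overlap, against 14.5% of all genes. HOXC-AS1 was read at 3.75, 2.08 and 2.65 FPKM in shNC and at 0.334, 1.52 and 1.24 FPKM in shACAT2 (-0.94 ± 0.27, limma adjusted p = 0.101), and HOXC-AS2 beside it at 2.57, 1.98 and 1.57 FPKM and at 1.01, 1.38 and 0.902 FPKM (-0.53 ± 0.16, 0.117). HOXC-AS1 rested on 3 to 34 fragments per library, with the 3 in shACAT2 replicate 1. HOXB-AS3 (2.43, 1.74 and 1.76 against 1.17, 1.48 and 0.906 FPKM), HOXD-AS2 (6.72, 5.18 and 5.24 against 4.70, 4.08 and 3.54 FPKM) and PRAC1 (57.6, 46.5 and 43.4 against 38.7, 39.7 and 26.4 FPKM), a small protein gene known from prostate and colon, also lay lower in every shACAT2 library without passing. HOTAIR, the HOXC RNA known for binding Polycomb complexes, overlapped at 8.54, 8.46 and 8.20 FPKM and at 8.35, 7.65 and 6.10 FPKM.

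A smaller number went the other way. HOXC13-AS, antisense to HOXC13, was read at 2.18, 2.32 and 2.22 FPKM in shNC and at 3.84, 3.63 and 2.89 FPKM in shACAT2 (0.45 ± 0.11, limma adjusted p = 0.0677, or 0.0502 with the replicate block). HOXA11-AS was read at 2.55, 2.15 and 2.50 FPKM and at 3.79, 3.35 and 2.77 FPKM (0.33 ± 0.12, 0.155). Both had the same sign as the gene they lie across, HOXC13 and HOXA11, and neither passed. Elsewhere the signs differed. HOXC-AS2 (-0.53) shares exon bases with HOXC9 (-0.34) and HOXC6 (0.28), and HOXB-AS3 (-0.45) with HOXB6 (-0.20) and HOXB5 (0.17), genes of both signs. Since shared exon bases were not counted, the readings of each gene and its antisense RNA come from separate bases. Strand did not decide the gene of a fragment, so transcript of either strand over these bases cannot be told apart. With the replicate block 4 of the 16 were called lower, against 4.81% of all genes, HOTTIP, HOXD-AS2, PRAC2 and the RNA AC012531.3, which rested on 1 to 18 fragments per library.

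The TALE cofactors were all present. PBX2 (22.1 ± 1.83 FPKM in shNC) and PBX3 (10.3 ± 0.367 FPKM) were the highest of 9 tested genes, and none passed in either direction with limma, although 6 had an unadjusted p under 0.05, against 23.5% of all genes. PBX3 was read at 10.1, 10.8 and 10.2 FPKM in shNC and at 8.45, 8.20 and 8.27 FPKM in shACAT2 (-0.29 ± 0.08, adjusted p = 0.101). Of the ParaHox genes, the sister cluster used in gut and pancreas, CDX2 alone was tested, at a mean of 1.88 FPKM in shNC and 2.20 FPKM in shACAT2 (adjusted p = 0.701), while the intestinal gene CDX1 had no fragment in any library.

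Of 32 tested Polycomb genes, 0 were called higher and 2 lower, against 3.3% and 1.81% of all genes. JARID2, a subunit that guides Polycomb repressive complex PRC2, was read at 7.54, 7.23 and 6.96 FPKM in shNC and at 3.38, 3.66 and 4.04 FPKM in shACAT2 (-0.81 ± 0.09, limma adjusted p = 0.0074). CBX2, a PRC1 subunit that binds methylated histone H3, was read at 37.5, 32.3 and 32.3 FPKM and at 21.7, 19.4 and 13.9 FPKM (-0.88 ± 0.17, adjusted p = 0.0374). The groups overlapped for neither, while the catalytic gene EZH2 had a log2 fold change of 0.03. The JARID2 call was lost without shNC replicate 2 (0.0570) or 3 (0.0560), and the CBX2 call without shACAT2 replicate 2 (0.108) or shNC replicate 1 (0.126), 2 (0.139) or 3 (0.141). BMI1, another PRC1 subunit, went from 13.8, 18.1 and 18.0 to 22.0, 27.9 and 29.8 FPKM and passed with the replicate block alone (adjusted p = 0.0682, or 0.0181 with the block).

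Of 16 Trithorax and MLL genes none passed with limma, 3 had an unadjusted p under 0.05, against 23.5% of all genes, and 4 had a higher mean log2 value in shACAT2, against 52.3% of all genes, with a median of -0.13. With the block ASH2L (0.37) passed higher and MLLT3 (-0.47) lower. Of 15 tested genes of chromatin architecture and retinoid supply, 1 rose and 1 fell, and with the block the cohesin gene STAG1 (-0.36, adjusted p = 0.0414) was called lower too. CYP26B1, which degrades retinoic acid, was read at 1.46, 0.836 and 0.983 FPKM in shNC and at 3.28, 3.30 and 3.77 FPKM in shACAT2 (1.10 ± 0.14, adjusted p = 0.0107). ALDH1A1, which makes retinoic acid, was read at 8.81, 9.68 and 9.53 FPKM and at 5.57, 5.00 and 4.28 FPKM (-0.80 ± 0.11, adjusted p = 0.0127). Neither group pair overlapped. CYP26B1 lost the call without shACAT2 replicate 2 (0.0567) or shNC replicate 2 (0.0561) or 3 (0.0732), and ALDH1A1 without shACAT2 replicate 2 (0.0646) or shNC replicate 1 (0.0544), 2 (0.0835) or 3 (0.0855). CTCF, which bounds domains in the HOX clusters, had a log2 fold change of -0.13 (adjusted p = 0.442).

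**Figure D5:**
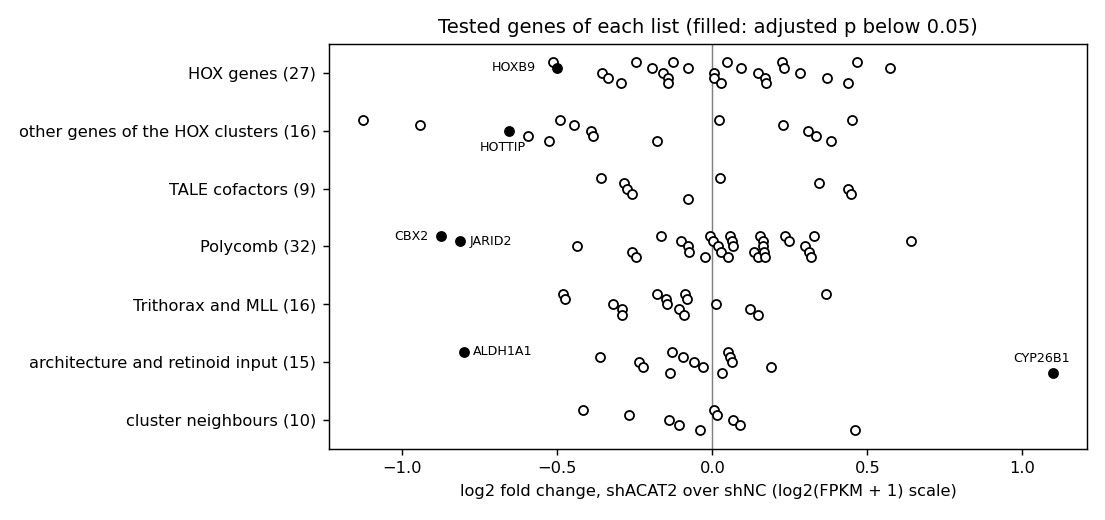
Log2 fold change of shACAT2 over shNC on the log2(FPKM + 1) scale (x axis) for every tested gene of each list (rows, with the number tested), where filled points passed an adjusted p of 0.05. Filled points are HOXB9, HOTTIP, CBX2, JARID2 and ALDH1A1 on the lower side and CYP26B1 at 1.10 on the higher side.

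Of 10 tested neighbours outside the clusters, 0 were called in either direction with limma and 2 had an unadjusted p under 0.05, while the replicate block called CALCOCO1 higher (adjusted p = 0.0337) and CBX5 lower (0.0424). CALCOCO1 and CBX5 flank the HOXC cluster. CALCOCO1 went from 2.56, 2.23 and 2.18 to 4.09, 3.57 and 3.09 FPKM (0.46, limma adjusted p = 0.0678), and CBX5 from 32.7, 38.8 and 37.3 to 21.9, 29.1 and 30.3 FPKM (-0.42, adjusted p = 0.155). EVX2, beside HOXD13, was read at a mean of 1.82 FPKM in shNC and 2.01 FPKM in shACAT2, and EVX1, beside HOXA13, stayed under 1 FPKM. Among the mesenchymal markers, SPARC (33.8, 27.5 and 29.6 against 68.1, 54.5 and 60.2 FPKM) and COL1A1 (67.0, 57.9 and 58.0 against 139, 116 and 108 FPKM) rose, with limma adjusted p of 0.0118 and 0.0136. Without shNC replicate 3 these became 0.0854 and 0.0983, and the part of this shift in the HOX values was not tested.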

How the data were processed

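RNA-sequencing was performed on 3 shNC and 3 shACAT2 libraries of HGC-27 cells. The authors deposited FPKM values per gene, and the submitters' processing notes name HISAT2 2.0.5, featureCounts 1.5.0-p3, DESeq2 1.20.0 and hg38 without their roles. Gene lengths of all 101 genes of the HOX clusters equalled those of GENCODE release 29. Fragments were read back from FPKM and gene length, and 100% of values came out whole within 0.05. The denominator of FPKM was 0.957 times the fragments on genes in shACAT2 replicate 1 and 1.02 to 1.07 times in the other libraries.

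The sample titles gave the groups and replicate numbers. The 13832 genes whose shNC or shACAT2 mean reached 1 FPKM were tested with limma 3.58.1 (R 4.3.3, trend) on log2(FPKM + 1), two-sided, with Benjamini-Hochberg adjustment over all of them and a threshold of 0.05. This scale understates the change of low genes. The alternatives were scaling by upper quartile or fragments on genes, other filters, a pseudocount of 0.1, limma-voom on fragments, a replicate block, leaving out each library and averaging shNC replicates 2 and 3. The script was tested on simulated data. The members and all gene lists were chosen with earlier results of these data known. Of the 39 members, 1 is counted but not reported here. All members above 1 FPKM were named, and of other lists at most 8 genes that passed, with further genes given after their values were seen. The deviations of same-numbered libraries from their group means correlated at 0.445, 0.126 and 0.171. Each exceeded 0.1, so the replicate number was used as a block, but in an alternative fit only. The main fit had no block and took the libraries as unpaired. No label gives a shared day or batch, and crosswise shNC-2 with shACAT2-3 (0.198) and shNC-3 with shACAT2-2 (0.141) correlated as much, so numbers 2 and 3 are not told apart by this check. Counting depth limits genes of few fragments.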

Additional observations from a re-analysis of the deposited data

How the results depend on the processing

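Of 446 values for 32 genes under the alternatives, 392 kept their direction and side of the threshold, 30 kept the direction but no longer passed, 4 newly passed and 20 turned sign, the last in 6 genes of small difference. The count of HOX genes called higher was 0, or 1 (HOXA3) with at least 10 fragments in every library or with limma-voom on fragments and 2 with the replicate block. The count called lower was 1, or 0 with no filter on low values or with shNC replicates 2 and 3 averaged, and 0 to 1 when each library was left out in turn. Other genes of the clusters gave 1 lower, or 4 with the replicate block, 0 with the averaged shNC libraries and 0 to 1 on leaving out a library, and 0 higher, or 0 to 1 on leaving out a library. The partners and regulators gave 1 higher, or 2 with the fragment filter, 3 with limma-voom, 4 with the replicate block, 0 with the averaged libraries and 0 to 2 on leaving out a library. They gave 3 lower, or 2 with no filter, 4 with the fragment filter, 6 with the block, 0 with the averaged libraries and 0 to 3 on leaving out a library. The pairing of the replicate numbers changed no other of these counts. ACAT2 stayed between -1.07 and -0.94 on leaving out a library.

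When libraries were scaled by the upper quartile or to equal fragments, the log2 fold change became -0.016 or -0.011 for HOXA4, -0.052 or -0.046 for HOXA13 and -0.051 or -0.045 for HOXD13. The averaged shNC libraries gave -0.045 for HOXA4 and -0.00038 for HOXD13. On leaving out a library the ranges were -0.14 to 0.17 for HOXA4, -0.071 to 0.072 for HOXA13, -0.049 to 0.21 for HOXB13, -0.12 to 0.21 for HOXC5, -0.26 to 0.017 for HOXD9 and -0.096 to 0.069 for HOXD13. The cause was not tested, beyond fewer libraries where some were left out or averaged. A limit of 5 FPKM in place of 1 left 12 expressed HOX genes of 27. Genes of few fragments, such as HOXA6 and HOXD12, are limited by depth.

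Over all genes, calls higher and lower numbered 456 and 250, or 149 and 60 with no filter, 606 and 428 with the fragment filter, 617 and 399 with limma-voom, 1061 and 666 with the replicate block and 63 and 20 with the averaged libraries. They fell to 49 and 14 at the lowest, without shNC replicate 3, and the highest counts on leaving out a library were 523 and 339, without shACAT2 replicate 1.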
